A study of Mus musculus with 40 samples.

Results

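The genes described here drive and carry out cell division, from the cyclins and kinases of G1 to the motors and kinases of mitosis. The list holds 54 genes. A gene was measured where the platform annotation gives its symbol, and only that symbol, to a probe set. With several such probe sets, the brightest on average was used. Of the 54 genes, 52 were measured, out of 17097 genes in all, and Cdc25a and Ccnb1 were not analysed here. A mean log2 signal of at least 5 was found for 50 of the 52. The exceptions were Ccnd1 and Cdk6, whose signals lay near the array medians of 4.21 to 4.27.

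A cell enters the cycle when D cyclins with Cdk4 or Cdk6, and then E cyclins with Cdk2, inactivate the retinoblastoma protein and free E2F factors to switch on genes of DNA replication. Later, cyclin B with Cdk1, activated by CDC25 phosphatases, drives mitosis, where the Aurora and Polo kinases, Bub1 and the kinetochore proteins part the chromosomes. Plasma cells normally leave the cycle, whereas plasmacytoma lines divide in culture.

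The 40 arrays measured total RNA of J558LuM, a mouse plasmacytoma line, after transduction. All groups share the line and the transduction step and differ in the construct. MIR, the empty vector, had 7 arrays, as had PAX5-WT, which carries wild-type PAX5, the factor that sets B cell identity. PAX5-G183S and PAX5-G183V, each with a changed residue in the octapeptide motif, had 7 arrays each, and PAX5-P80R, changed in the paired DNA-binding domain, had 6. PAX5-Δ2-6, known from the labels by that name alone, had 6 arrays. Every array came from a transduction of its own, and the p-values speak of the spread among transductions of 1 line. In such bulk RNA, fewer dividing cells and less RNA per dividing cell cannot be told apart.

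The labels tie arrays to 2 plates, 2 RNA isolation batches and numbered transductions. MIR, PAX5-WT and PAX5-G183S used numbers 34 to 44 and 58 to 66, with 1 PAX5-G183S array at 45. PAX5-G183V, PAX5-P80R and PAX5-Δ2-6 used 1 to 9 and 45 to 57, so in comparisons across these series construct and series can hardly be told apart. PAX5-P80R and PAX5-Δ2-6 lay on plate 2 alone. The 6 plasma cell markers measured had median log2 signals from 8.26 for Ly6c1 to 13.21 for Xbp1, with 12.33 for Jchain. The 10 fibroblast markers summed to 35.8 to 38.1 over all groups, and the 8 T cell markers measured to 37.6 to 40.0. Of the latter, Cd3g and Cd6 had medians of 8.27 and 6.82, and the others lay between 3.54 and 4.45. Among markers of other lineages, the myeloid Cd68 had a median of 10.5 and the erythroid Tfrc of 12.72. All other markers of these kinds lay at 5.27 or below. The Pax5 probe set read between 3.97 and 5.90 over all arrays, and the sources used here do not say whether it covers the transduced sequence. Ms4a1, the B cell gene for CD20, was higher than in MIR by 5.29 ± 0.28 (limma SE, log2 scale) in PAX5-WT, by 4.99 ± 0.28 in PAX5-G183S and by 4.98 ± 0.28 in PAX5-G183V. It was not called against MIR in PAX5-P80R or PAX5-Δ2-6, which lay below PAX5-WT by -5.12 ± 0.31 and -5.32 ± 0.31. It was the 1 called of 9 B cell markers in PAX5-WT, where the list's median was 0.04. Pax5 was called against MIR in PAX5-P80R (0.61 ± 0.17, limma adjusted p = 0.0248).

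Promoters of cell cycle genes often hold E2F sites, the CHR element of the DREAM complex and CCAAT boxes bound by NF-Y. The 250 bases before the start are shown for Cdc25b, the member with the largest differences, for Mki67 and Rrm2, which were called with at least 3 of the constructs, and for Aurka, which was called in PAX5-WT and PAX5-G183S. They are RefSeq sequences of GRCm38.p6, read 5′ to 3′ on the gene's strand, with motifs in capitals on either strand. The E2F motif was searched as TTCCCGC or with other letters as TTCGCGC, and also in the form TTGCCGC or in the form TTGGCGC, the CHR element as TTTGAA and the NF-Y box as CCAAT, and no matches overlapped in these 4 windows. Cdc25b lies at chr2:131186698-131186947 (plus strand), Mki67 at chr7:135716380-135716629 (minus), Rrm2 at chr12:24708004-24708253 (plus) and Aurka at chr2:172370571-172370820 (minus).
Cdc25b: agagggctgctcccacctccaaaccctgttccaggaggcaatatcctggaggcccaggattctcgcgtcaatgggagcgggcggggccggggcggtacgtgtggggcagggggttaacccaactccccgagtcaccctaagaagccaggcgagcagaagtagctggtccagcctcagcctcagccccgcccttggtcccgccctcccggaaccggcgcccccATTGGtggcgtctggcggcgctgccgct
Mki67: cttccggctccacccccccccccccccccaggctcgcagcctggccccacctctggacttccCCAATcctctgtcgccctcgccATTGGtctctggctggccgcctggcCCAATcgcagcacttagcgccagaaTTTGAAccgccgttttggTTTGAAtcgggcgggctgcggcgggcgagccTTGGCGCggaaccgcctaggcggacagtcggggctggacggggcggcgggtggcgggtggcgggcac
Rrm2: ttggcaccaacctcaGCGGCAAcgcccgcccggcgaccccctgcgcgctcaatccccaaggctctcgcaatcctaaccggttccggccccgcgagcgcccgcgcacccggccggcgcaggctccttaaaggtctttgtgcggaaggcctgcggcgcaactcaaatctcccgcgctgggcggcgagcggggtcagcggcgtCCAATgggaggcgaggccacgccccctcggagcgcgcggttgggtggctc
Aurka: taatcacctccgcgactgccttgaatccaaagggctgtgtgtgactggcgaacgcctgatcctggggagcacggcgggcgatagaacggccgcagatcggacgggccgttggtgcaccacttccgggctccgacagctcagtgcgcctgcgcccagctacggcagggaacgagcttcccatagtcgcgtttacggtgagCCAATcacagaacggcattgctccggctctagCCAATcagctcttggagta
The Mki67 window held 1 E2F match, 67 bases before the start, with 2 CHR and 3 CCAAT matches. Rrm2 held 1 E2F match, at 235 bases, whereas Cdc25b and Aurka held CCAAT matches alone. Of 42 measured members with a RefSeq promoter, 28.6% held an E2F match, beside 9.01% of 27025 genes. CCAAT stood in 76.2% of members against 37.5% of all, and CHR in 26.2% against 18.3%. Among the 18 of these 42 that were called in at least 1 comparison, E2F matches were found in 27.8%, and among the 24 called in none in 29.2%. CHR matches stood in 11.1% of the former and 37.5% of the latter. These matches describe letters and were given no test.

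The first question is what each construct did to the cycle genes against the empty vector. Here and below a difference is on the log2 scale, from a fit by limma over all 40 arrays with plate and isolation batch terms, ± is the SE of limma, and a gene was called at a Benjamini-Hochberg adjusted p under 0.05 over all 17097 genes. The comparisons with MIR share the MIR arrays, so their values stand side by side and are not independent. PAX5-WT had 1 member higher and 8 lower than MIR, 17.3% of the 52. Of all genes 6.43% were called, 3.59% higher and 2.84% lower, and of genes with a mean log2 signal of at least 5, 11.8%. PAX5-G183S had 1 higher and 9 lower (19.2%), beside 6.12% of all genes, 3.69% higher and 2.43% lower, and 11.2% of these brighter genes. PAX5-G183V had 4 higher and 7 lower (21.2%), beside 9.28% of all genes, 5.63% higher and 3.64% lower, and 16.4% of the brighter genes. PAX5-P80R had 2 higher and 4 lower (11.5%), beside 4.72% of all genes, 2.25% higher and 2.47% lower, and 8.94% of the brighter ones, so its share lay near that background. In PAX5-Δ2-6 limma called 0 members and 0% of all genes, with 4 members and 1308 genes at an unadjusted p under 0.05. Single arrays moved some counts: 5 members were called in PAX5-G183S without its replicate 2, 6 in PAX5-G183V without MIR replicate 5, and 2 in PAX5-P80R without its replicate 4. On plate 2 alone, with fewer arrays, 1 member was called in each of the 4 constructs. With 3 transduction series as terms in place of isolation batch the counts were higher, with 19 members in PAX5-G183V, 10 in PAX5-P80R and 7 in PAX5-Δ2-6, and with 4 series they were 1, 0 and 0. Over the 12 comparisons made here, 59 calls of members were made, of which 35 held whichever single array was left out and 16 were lost in more than 0.5 of those runs.

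Most differences were small. The median difference over the 52 members was -0.039 in PAX5-WT, beside 0.008 over all genes, and it lay between -0.036 and 0.011 in the other 4 constructs. In PAX5-WT 39 of 52 members stayed within 1.1-fold of MIR, as did 80.3% of all genes. The counts were 39, 38, 41 and 45 in PAX5-G183S, PAX5-G183V, PAX5-P80R and PAX5-Δ2-6, beside 78.1%, 73.5%, 76.4% and 83.7% of all genes. All genes include many dim ones, so these shares are not like for like. Leaving Cdc25b aside, the largest difference from MIR of any member was 1.32-fold, that of Foxm1 in PAX5-WT. Of the 52 members, 18 were called in at least 1 of the 5 comparisons with MIR, and Cdc25b, Mki67, Cdc6 and Rrm2 in at least 3 of them. The matching shares over all genes were not counted, so these counts have no background beside them.

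**Figure D1:**
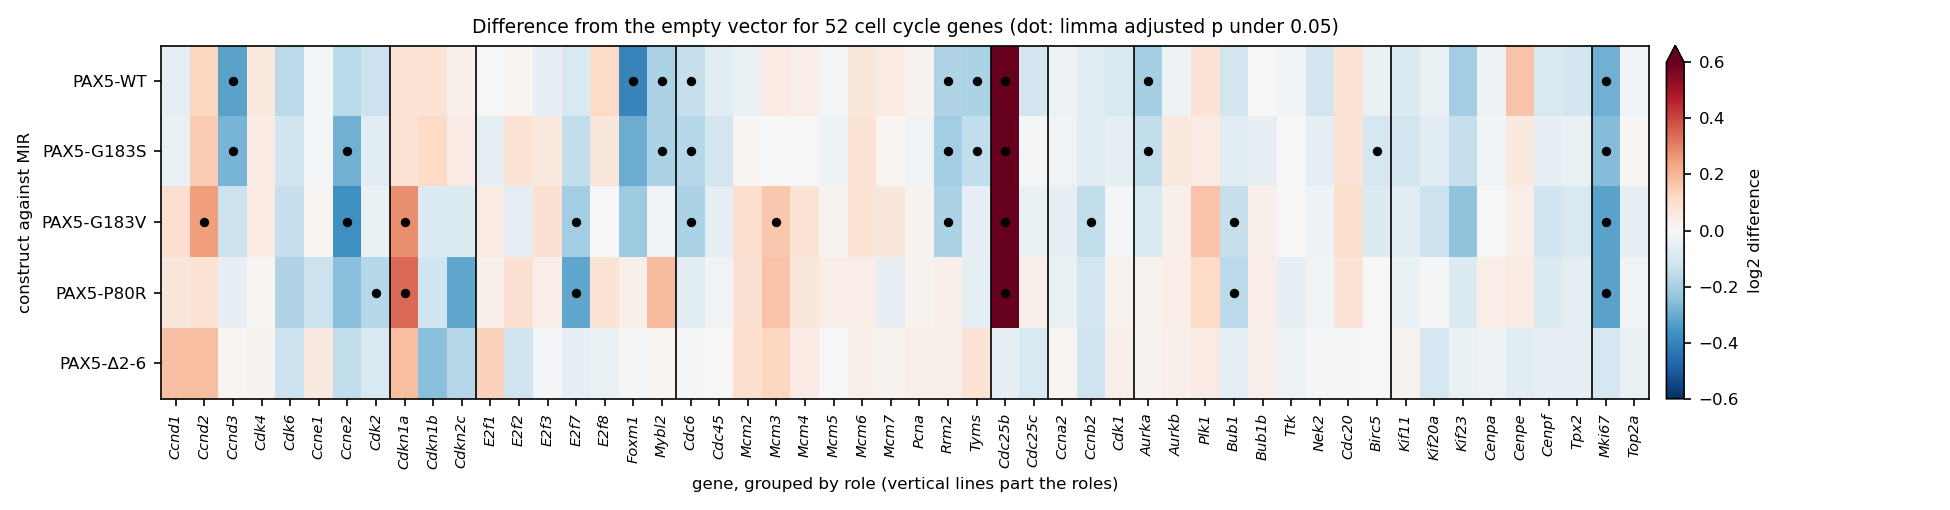
Log2 difference from MIR (colour, from -0.6 to 0.6, with the end colour beyond) of the 52 members (columns, by role) in the 5 constructs, with a dot where limma's adjusted p was under 0.05. Cdc25b is dark red in 4 constructs, most other called members are blue, and the PAX5-Δ2-6 row has no dot.

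Cdc25b, the phosphatase that activates cyclin-dependent kinases before mitosis, rose in every construct but PAX5-Δ2-6. It had a single probe set of its own symbol, so no other probe set could be set beside it. In MIR its log2 signal ran from 7.83 to 8.11 with a median of 7.96. PAX5-WT arrays lay between 8.64 and 9.40 (median 8.97) and PAX5-G183S arrays between 8.53 and 9.29 (8.86). The lowest array of either group was above the highest MIR array. PAX5-G183V gave 8.65 to 8.83 (8.77) and PAX5-P80R 8.63 to 8.84 (8.72), narrow ranges that also cleared MIR. PAX5-Δ2-6 gave 7.51 to 8.25 (7.97) and overlapped MIR. The rise was 1.11 ± 0.09 in PAX5-WT, or 2.16-fold (limma adjusted p = 2.26e-12). It was 0.91 ± 0.09 in PAX5-G183S (6.68e-10), 0.80 ± 0.09 in PAX5-G183V (1.34e-08) and 0.75 ± 0.10 in PAX5-P80R (9.83e-07). In PAX5-Δ2-6 the difference was -0.05 ± 0.10 (adjusted p = 0.946). Within isolation batch 1 the PAX5-WT difference was 0.93 ± 0.09 and within batch 2 it was 1.35 ± 0.10, and the change between batches did not pass the test (adjusted p = 0.835). PAX5-P80R gave 0.75 and 0.77 in the same batches. With 4 transduction series as terms, the PAX5-P80R value was 0.82 with an adjusted p of 0.0517. Cdc25c, a related phosphatase, was called in none of the 5, with -0.11 in PAX5-WT.

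**Figure D2:**
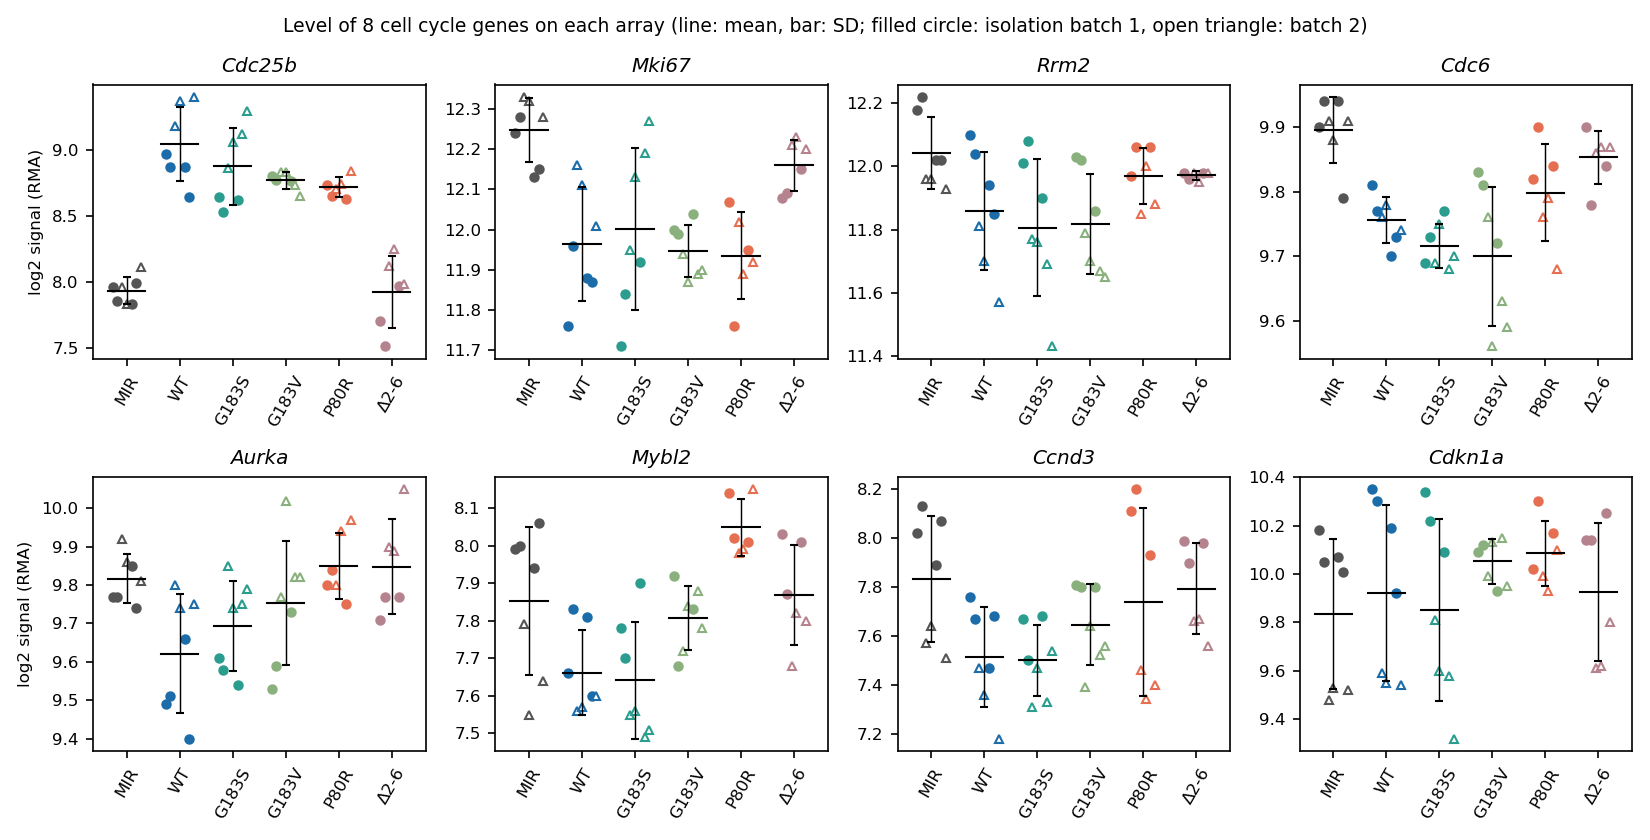
Log2 signal (RMA) of 8 members on each array, by construct, with the mean as a line and the SD as a bar, filled circles for isolation batch 1 and open triangles for batch 2. For Cdc25b the PAX5-WT, PAX5-G183S, PAX5-G183V and PAX5-P80R arrays all lie above the 7 MIR arrays, whereas Cdkn1a in MIR splits by isolation batch.

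Mki67, the proliferation marker Ki-67 that coats mitotic chromosomes, fell in the same 4 constructs. MIR arrays lay between 12.13 and 12.33 (median 12.28). PAX5-WT ran from 11.76 to 12.16 (11.96) and PAX5-G183S from 11.71 to 12.27 (11.95), each with some arrays within the MIR range. PAX5-G183V ran from 11.87 to 12.04 (11.94) and PAX5-P80R from 11.76 to 12.07 (11.93). Both of these groups were wholly below MIR. The differences were -0.29 ± 0.06 in PAX5-WT (limma adjusted p = 0.00117), -0.26 ± 0.06 in PAX5-G183S (0.0035), -0.32 ± 0.06 in PAX5-G183V (0.000289) and -0.32 ± 0.07 in PAX5-P80R (0.0016), between 1.2-fold and 1.25-fold. PAX5-Δ2-6 lay between 12.08 and 12.23 and differed by -0.10 ± 0.07 (adjusted p = 0.742). With 4 transduction series as terms the PAX5-P80R value was -0.27 with an adjusted p of 0.662 and the PAX5-G183V value -0.26 with 0.531. Top2a, the topoisomerase that untangles chromosomes, was not called in any of the 5.

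Among the 11 replication genes, 3 fell in PAX5-WT, the same number in PAX5-G183S, and in PAX5-G183V 2 fell and 1 rose. That was 27.3% in each, beside 11.8%, 11.2% and 16.4% of the brighter genes. In PAX5-P80R and PAX5-Δ2-6 none of them was called. Rrm2, a subunit of ribonucleotide reductase, which makes deoxynucleotides, ran from 11.93 to 12.22 in MIR (median 12.02), from 11.57 to 12.10 in PAX5-WT (11.85) and from 11.85 to 12.06 in PAX5-P80R (11.99). These ranges overlapped. In MIR the isolation batch 1 arrays (12.02 to 12.22) were above those of batch 2 (11.93 to 11.96), and in PAX5-WT too (11.85 to 12.10 and 11.57 to 11.81). The other groups gave 11.43 to 12.08 in PAX5-G183S (median 11.77), 11.65 to 12.03 in PAX5-G183V (median 11.79) and 11.95 to 11.98 in PAX5-Δ2-6 (median 11.98), the last of these the narrowest range. Rrm2 fell by 0.18 ± 0.05 in PAX5-WT (limma adjusted p = 0.0103), by 0.21 ± 0.05 in PAX5-G183S (0.00312) and by 0.19 ± 0.05 in PAX5-G183V (0.00471). In PAX5-P80R it was 0.03 ± 0.05 (0.859).

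Cdc6 loads the MCM helicase onto origins. Its MIR arrays lay between 9.79 and 9.94 (median 9.91), PAX5-G183S arrays between 9.68 and 9.77 (9.70) and PAX5-WT arrays between 9.70 and 9.81 (9.76). All PAX5-G183S arrays were below MIR, and the PAX5-WT range reached just into it. The range was 9.56 to 9.83 in PAX5-G183V (median 9.72), 9.68 to 9.90 in PAX5-P80R (median 9.80) and 9.78 to 9.90 in PAX5-Δ2-6 (median 9.87), all overlapping MIR. The fall was 0.14 ± 0.04 in PAX5-WT (limma adjusted p = 0.015), 0.17 ± 0.04 in PAX5-G183S (0.0019) and 0.19 ± 0.04 in PAX5-G183V (0.000657), a 1.1-fold to 1.14-fold difference. Tyms, which makes thymidylate, fell in PAX5-WT (-0.19 ± 0.04, adjusted p = 0.00247) and in PAX5-G183S (-0.15 ± 0.04, 0.0252). Its signal ran from 10 to 10.35 in MIR (median 10.27), 9.70 to 10.24 in PAX5-WT (median 10.03) and 9.88 to 10.21 in PAX5-G183S (median 9.99), and from 9.98 to 10.24 in PAX5-G183V (median 10.16), 9.93 to 10.32 in PAX5-P80R (median 10.11) and 10.15 to 10.43 in PAX5-Δ2-6 (median 10.27). Every construct overlapped MIR. Its probe sets disagreed in PAX5-G183V, where the brightest gave -0.05 ± 0.04 and a dimmer one with a mean of 5.65 gave -0.44 ± 0.10. The helicase genes Mcm2, Mcm4, Mcm5, Mcm6 and Mcm7, the sliding clamp gene Pcna and Cdc45 were called in none of the 12 comparisons.

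Mcm3, another subunit of the helicase, was called higher in PAX5-G183V (0.16 ± 0.05, limma adjusted p = 0.0478), and this rested on 1 isolation batch. In batch 1 MIR gave 10.34 to 10.50 and PAX5-G183V 10.36 to 10.42, which overlap. In batch 2 the 3 MIR arrays gave 10.21 to 10.29 and the 4 PAX5-G183V arrays 10.46 to 10.62, which do not. The difference was -0.02 ± 0.06 in batch 1 and 0.33 ± 0.06 in batch 2. This was not particular to PAX5-G183V. In batch 2 PAX5-P80R (10.43 to 10.52, a difference of 0.25 ± 0.07) and PAX5-Δ2-6 (10.43 to 10.46, 0.22 ± 0.07) also lay wholly above MIR. PAX5-WT (10.20 to 10.31) and PAX5-G183S (10.29 to 10.33) reached into or touched the MIR range there. In the other groups Mcm3 ran from 10.20 to 10.59 in PAX5-WT (median 10.31), 10.29 to 10.40 in PAX5-G183S (median 10.31), 10.40 to 10.68 in PAX5-P80R (median 10.50) and 10.43 to 10.52 in PAX5-Δ2-6 (median 10.46).

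Of the 7 transcription factors of the cycle, 2 fell in PAX5-WT (28.6%, beside 11.8% of the brighter genes). In PAX5-G183S, PAX5-G183V and PAX5-P80R 1 fell in each (14.3%), beside 11.2%, 16.4% and 8.94% of the brighter genes. Foxm1, which drives genes of G2 and mitosis, ran from 6.58 to 6.94 in MIR (median 6.78) and from 5.87 to 6.63 in PAX5-WT (6.49), ranges that touch at their ends. It ran from 6.08 to 6.96 in PAX5-G183S (median 6.50), 6.08 to 6.95 in PAX5-G183V (median 6.69), 6.53 to 7.01 in PAX5-P80R (median 6.86) and 6.56 to 7 in PAX5-Δ2-6 (median 6.71), so these overlapped MIR. The difference was -0.40 ± 0.12 (limma adjusted p = 0.0335). The 2 next brightest probe sets gave -0.34 ± 0.10 and -0.25 ± 0.11. PAX5-G183S gave -0.30 ± 0.12 (adjusted p = 0.147), and PAX5-P80R 0.03 ± 0.13. Mybl2, the B-Myb factor that works with DREAM subunits, ran from 7.55 to 8.06 in MIR (7.94), from 7.56 to 7.83 in PAX5-WT (7.60), and from 7.98 to 8.15 in PAX5-P80R (8.01). Values were 7.49 to 7.90 in PAX5-G183S (median 7.56), 7.68 to 7.92 in PAX5-G183V (median 7.83) and 7.68 to 8.03 in PAX5-Δ2-6 (median 7.84), with the highest median in PAX5-P80R. It fell by 0.19 ± 0.06 in PAX5-WT (0.0324) and in PAX5-G183S (0.0384), whereas PAX5-P80R was at 0.19 ± 0.06 (0.0784). A dimmer second probe set gave -0.10 ± 0.11 in PAX5-WT, -0.09 ± 0.11 in PAX5-G183S and 0.39 ± 0.12 in PAX5-P80R, so the sizes differed between the probe sets. Leaving out 1 array ended the Mybl2 call in 7 of 14 runs in PAX5-WT and 10 of 14 in PAX5-G183S, and the Foxm1 call in PAX5-WT in 6 of 14. E2f7, a repressing E2F, fell in PAX5-P80R (-0.31 ± 0.08, 0.0127) and PAX5-G183V (-0.21 ± 0.07, 0.0478). The call was lost in 1 of 13 such runs in PAX5-P80R and in 10 of 14 in PAX5-G183V. In isolation batches 1 and 2 the differences were -0.13 ± 0.08 and -0.50 ± 0.09 in PAX5-P80R. They were -0.09 ± 0.08 and -0.33 ± 0.08 in PAX5-G183V. Neither change between batches passed (limma adjusted p = 0.18 and 0.382). The PAX5-P80R arrays of E2f7 ran from 7.50 to 8.18 and overlapped the MIR range of 8.05 to 8.28. E2f7 ran from 7.88 to 8.29 in PAX5-WT (median 8.02), 7.76 to 8.10 in PAX5-G183S (median 7.98), 7.74 to 8.17 in PAX5-G183V (median 7.88) and 7.92 to 8.19 in PAX5-Δ2-6 (median 8.14). E2f1, E2f2, E2f3 and E2f8 were called in none of the 12 comparisons.

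Of the 8 G1 cyclins and kinases, 1 fell in PAX5-WT, 2 fell in PAX5-G183S, 1 rose and 1 fell in PAX5-G183V and 1 fell in PAX5-P80R. These shares were 12.5%, 25%, 25% and 12.5%, beside 11.8%, 11.2%, 16.4% and 8.94% of the brighter genes. Ccnd3, the D cyclin typical of lymphoid cells, ran from 7.51 to 8.13 in MIR (median 7.89), from 7.18 to 7.76 in PAX5-WT (7.47) and from 7.31 to 7.68 in PAX5-G183S (7.50). The groups overlapped, and in each the median of isolation batch 2 was below that of batch 1. The remaining groups, 7.39 to 7.81 in PAX5-G183V (median 7.64), 7.34 to 8.20 in PAX5-P80R (median 7.69) and 7.56 to 7.99 in PAX5-Δ2-6 (median 7.78), lay nearer to MIR. It fell by 0.32 ± 0.07 in PAX5-WT (limma adjusted p = 0.00133) and by 0.28 ± 0.07 in PAX5-G183S (0.00563), and stood at -0.05 ± 0.07 in PAX5-P80R and 0.01 ± 0.07 in PAX5-Δ2-6. Ccnd2, another D cyclin, rose in PAX5-G183V, from 11.96 to 12.20 in MIR (12.07) to 12 to 12.67 (12.46), by 0.25 ± 0.06 (0.00387). This was 0.10 ± 0.07 in isolation batch 1 and 0.38 ± 0.07 in batch 2, and the change between batches did not pass (limma adjusted p = 0.139). In batch 2 PAX5-Δ2-6 (12.31 to 12.38, a difference of 0.25 ± 0.07) also lay wholly above MIR (12.14 to 12.20). Elsewhere Ccnd2 ran from 12.06 to 12.36 in PAX5-WT (median 12.21), 12.01 to 12.48 in PAX5-G183S (median 12.28), 11.99 to 12.24 in PAX5-P80R (median 12.11) and 12.05 to 12.38 in PAX5-Δ2-6 (median 12.22). Ccnd1 stayed between 3.75 and 4.70 on all arrays and was called nowhere, with differences from MIR of -0.06 to 0.18. Ccne2, a partner of Cdk2, fell in PAX5-G183V (-0.37 ± 0.09, 0.00623) and just passed in PAX5-G183S (-0.29 ± 0.09, 0.0498), in wide ranges such as 7.93 to 9.26 in PAX5-G183V against 8.64 to 9.32 in MIR. The spread of Ccne2 was like this elsewhere, from 8.32 to 9.30 in PAX5-WT (median 8.98), 7.81 to 9.12 in PAX5-G183S (median 8.57), 8.03 to 8.94 in PAX5-P80R (median 8.61) and 7.98 to 9.12 in PAX5-Δ2-6 (median 8.76). Cdk2 itself was called lower in PAX5-P80R alone among the 5 (-0.17 ± 0.05, 0.0456), which was not a test of a difference between constructs. That call was lost in 10 of 13 runs with 1 array left out and held in 2 of 12 other alternatives, and the Ccne2 call in PAX5-G183S was lost in 10 of 14 runs. Its arrays ran from 7.98 to 8.46 in MIR (median 8.39) and 7.86 to 8.33 in PAX5-P80R (median 8.06), which overlap, and from 7.91 to 8.35 in PAX5-WT (median 8.11), 7.98 to 8.34 in PAX5-G183S (median 8.13), 8.05 to 8.34 in PAX5-G183V (median 8.18) and 7.87 to 8.36 in PAX5-Δ2-6 (median 8.19).

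Cdkn1a, the inhibitor p21 that p53 induces, was called higher in PAX5-P80R (0.34 ± 0.10, limma adjusted p = 0.0442) and in PAX5-G183V (0.28 ± 0.09, 0.0467). MIR arrays fell into 2 levels by isolation batch, 10.01 to 10.18 in batch 1 and 9.48 to 9.53 in batch 2. PAX5-WT had the same split, 9.92 to 10.35 and 9.54 to 9.59. PAX5-G183V gave 9.93 to 10.12 in batch 1 and 9.95 to 10.15 in batch 2, and PAX5-P80R 10.02 to 10.30 and 9.93 to 10.10. Both constructs thus lay within or near MIR in batch 1 and wholly above it in batch 2. This was not particular to them. In batch 2 PAX5-Δ2-6 (9.61 to 9.80, a difference of 0.25 ± 0.09) also lay wholly above MIR, and PAX5-WT (0.05 ± 0.09) lay just above it. Over both batches Cdkn1a ran from 9.32 to 10.34 in PAX5-G183S (median 9.81) and 9.61 to 10.25 in PAX5-Δ2-6 (median 9.97). The PAX5-G183V difference was -0.05 ± 0.08 in batch 1 and 0.57 ± 0.08 in batch 2, a change of 0.62 ± 0.12 (limma adjusted p = 0.00471). In PAX5-P80R the 2 values were 0.15 ± 0.09 and 0.58 ± 0.09, and the change did not pass (0.0886). A second Cdkn1a probe set gave 0.26 ± 0.09 in PAX5-G183V and 0.29 ± 0.10 in PAX5-P80R. Over the 52 members and 5 comparisons, limma called 2 changes between batches, both in PAX5-G183V, where 1.04% of all genes were called. The same share was 0.0292% in PAX5-WT, 0% in PAX5-G183S, 0.696% in PAX5-P80R and 0.211% in PAX5-Δ2-6. Every construct had arrays from both isolation batches. Within batch 2, however, the MIR arrays were transductions 58 to 60 and the PAX5-G183V arrays 46 to 50, so in that comparison construct and transduction series cannot be told apart. The PAX5-Δ2-6 arrays of batch 2, from transductions 53, 56 and 57, read 9.61 to 9.80 for Cdkn1a, below every PAX5-G183V array of that batch. Over both batches Cdkn1a was not called between PAX5-G183V and PAX5-Δ2-6. What sets these groups apart was not tested. Leaving out 1 array at a time ended the Cdkn1a call in 9 of 14 runs in PAX5-G183V and in 9 of 13 in PAX5-P80R.

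**Figure D3:**
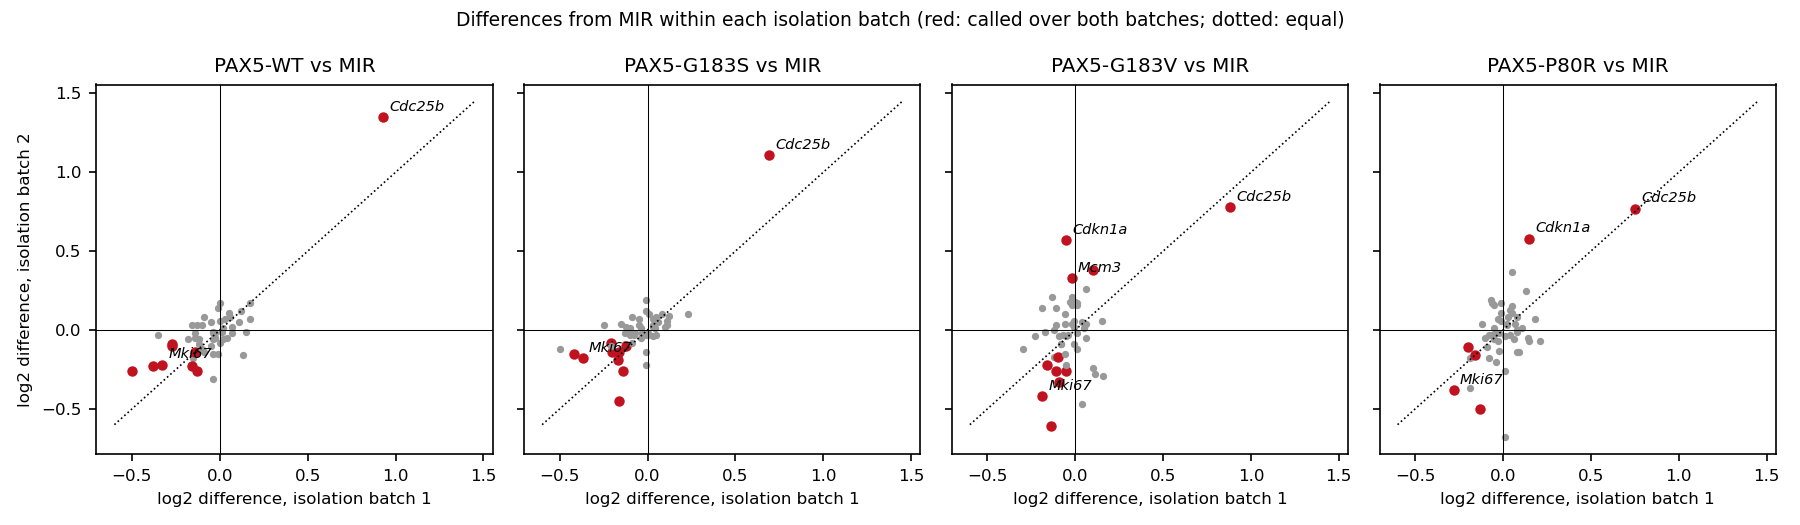
Log2 difference from MIR of the 52 members in isolation batch 1 (horizontal) and batch 2 (vertical) for 4 constructs, with called members in red and a dotted line of equal values. Cdc25b is high in both batches of each panel, and Cdkn1a in PAX5-G183V sits at -0.05 and 0.57.

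Of 9 mitotic kinases, checkpoint and anaphase genes, 1 fell in PAX5-WT (11.1%) and 2 in PAX5-G183S (22.2%). In PAX5-G183V and PAX5-P80R 1 fell in each (11.1%). Among the brighter genes 11.8%, 11.2%, 16.4% and 8.94% were called in these comparisons. Apart from PAX5-G183S, the shares thus lay near or below that background. Aurka, the kinase of centrosomes and spindle poles, ran from 9.74 to 9.92 in MIR (median 9.81) and from 9.40 to 9.80 in PAX5-WT (9.66). The ranges overlapped narrowly. Aurka ran from 9.54 to 9.85 in PAX5-G183S (median 9.74), 9.53 to 10.02 in PAX5-G183V (median 9.77), 9.75 to 9.97 in PAX5-P80R (median 9.82) and 9.71 to 10.05 in PAX5-Δ2-6 (median 9.83), of which only PAX5-G183S passed the test against MIR. It fell by 0.20 ± 0.05 in PAX5-WT (limma adjusted p = 0.00401) and by 0.15 ± 0.05 in PAX5-G183S (0.0439). Bub1, the spindle checkpoint kinase, fell by 0.16 ± 0.05 in PAX5-P80R (0.0487) and by 0.14 ± 0.04 in PAX5-G183V (0.0274), where a dim second probe set read 0.18 ± 0.08 and the mean of both gave 0.02. Bub1 ran from 10.59 to 10.76 in MIR (median 10.67), 10.38 to 10.62 in PAX5-G183V (median 10.56) and 10.42 to 10.63 in PAX5-P80R (median 10.56), with overlap, and from 10.42 to 10.70 in PAX5-WT (median 10.60), 10.53 to 10.68 in PAX5-G183S (median 10.60) and 10.54 to 10.69 in PAX5-Δ2-6 (median 10.66). Birc5, which encodes survivin, was -0.10 ± 0.03 in PAX5-G183S (0.0473), a 1.07-fold fall. The Birc5 ranges, 10.51 to 10.68 in MIR (median 10.60) and 10.43 to 10.58 in PAX5-G183S (median 10.51), overlapped, as did 10.49 to 10.64 in PAX5-WT (median 10.57), 10.43 to 10.61 in PAX5-G183V (median 10.54), 10.57 to 10.67 in PAX5-P80R (median 10.63) and 10.56 to 10.68 in PAX5-Δ2-6 (median 10.61). Plk1, Aurkb, Ttk, Nek2, Cdc20 and Bub1b were called in none of the 12 comparisons. Ccnb2, a B cyclin, was called in PAX5-G183V (-0.15 ± 0.05, 0.0386; 0.05 with 4 transduction series as terms), and Ccna2 and Cdk1, the mitotic kinase, nowhere. Ccnb2 ran from 9.74 to 9.96 in MIR (median 9.89) and 9.60 to 9.89 in PAX5-G183V (median 9.69), which overlap, and from 9.73 to 9.86 in PAX5-WT (median 9.80), 9.56 to 10.03 in PAX5-G183S (median 9.84), 9.72 to 9.84 in PAX5-P80R (median 9.80) and 9.70 to 9.91 in PAX5-Δ2-6 (median 9.74). Limma called 0 of the 7 spindle and kinetochore genes against MIR, with differences between -0.24 and 0.17 and with 2 genes in PAX5-WT, 1 in PAX5-G183S and 1 in PAX5-G183V at an unadjusted p under 0.05.

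The second question is whether the altered constructs differ from wild-type PAX5. Limma called 0 members between PAX5-G183S and PAX5-WT (0.076% of all genes, 0.00585% higher and 0.0702% lower, 4 members at an unadjusted p under 0.05) and 0 between PAX5-G183V and PAX5-WT (0.146% of all genes, 0.0526% higher and 0.0936% lower, 15 members at an unadjusted p under 0.05). With 3 transduction series as terms 9 members were called between PAX5-G183V and PAX5-WT, and in isolation batch 2 alone 4. For Cdc25b these differences were -0.20 ± 0.09 (adjusted p = 0.811) and -0.31 ± 0.09 (0.122). PAX5-P80R had 5 members higher and 1 lower than PAX5-WT (11.5%), beside 6.31% of all genes, 2.67% higher and 3.63% lower, and 11.5% of the brighter genes, so the share equals that background. PAX5-Δ2-6 had 5 higher and 3 lower (15.4%), beside 6.99% of all genes, 2.81% higher and 4.18% lower, and 12.8% of the brighter ones. Without PAX5-WT replicate 7 the count in PAX5-P80R was 3, and with 4 transduction series as terms the counts were 0 and 1. These comparisons share the PAX5-WT arrays with each other and with the comparison of PAX5-WT and MIR above, and those of PAX5-G183V, PAX5-P80R and PAX5-Δ2-6 cross the transduction series.

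Mybl2 was higher in PAX5-P80R, whose lowest array (7.98) was above the highest PAX5-WT array (7.83), a difference of 0.38 ± 0.06 (limma adjusted p = 8.59e-05). The other members higher in PAX5-P80R than in PAX5-WT were Foxm1 (0.43 ± 0.13, 0.0417), Ccnd3 (0.27 ± 0.07, 0.0204), Aurka (0.22 ± 0.05, 0.0055) and Rrm2 (0.21 ± 0.05, 0.00793). Cdc25b was lower by -0.36 ± 0.10 (0.0161), with overlapping arrays. Mki67 was at -0.04 ± 0.07 between these groups (0.826).

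In PAX5-Δ2-6 against PAX5-WT, Cdc25b was lower by -1.15 ± 0.10, and every PAX5-Δ2-6 array (7.51 to 8.25) lay below every PAX5-WT array (limma adjusted p = 1.97e-11). Ccnd3 (0.33 ± 0.07, 0.00362), Tyms (0.27 ± 0.05, 0.000135), Aurka (0.21 ± 0.05, 0.00509), Mybl2 (0.21 ± 0.06, 0.0388) and Rrm2 (0.21 ± 0.05, 0.00687) were higher. Cenpe, the kinetochore motor that carries chromosomes to the spindle equator, was lower by -0.24 ± 0.07 (0.0193). Its PAX5-Δ2-6 arrays ran from 9.36 to 9.61 and its PAX5-WT arrays from 9.64 to 9.88, without overlap. In the other groups Cenpe ran from 9.47 to 9.66 in MIR (median 9.62), 9.53 to 9.86 in PAX5-G183S (median 9.64), 9.48 to 9.86 in PAX5-G183V (median 9.63) and 9.22 to 9.93 in PAX5-P80R (median 9.71). Cdkn1b, the inhibitor p27, was lower by -0.33 ± 0.10 (0.0412), with 7.68 to 7.89 in PAX5-Δ2-6 and 7.82 to 8.26 in PAX5-WT, which overlap. The other Cdkn1b ranges were 7.83 to 8.11 in MIR (median 7.97), 7.76 to 8.61 in PAX5-G183S (median 8.02), 7.60 to 8.08 in PAX5-G183V (median 7.92) and 7.82 to 7.97 in PAX5-P80R (median 7.91).

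**Figure D4:**
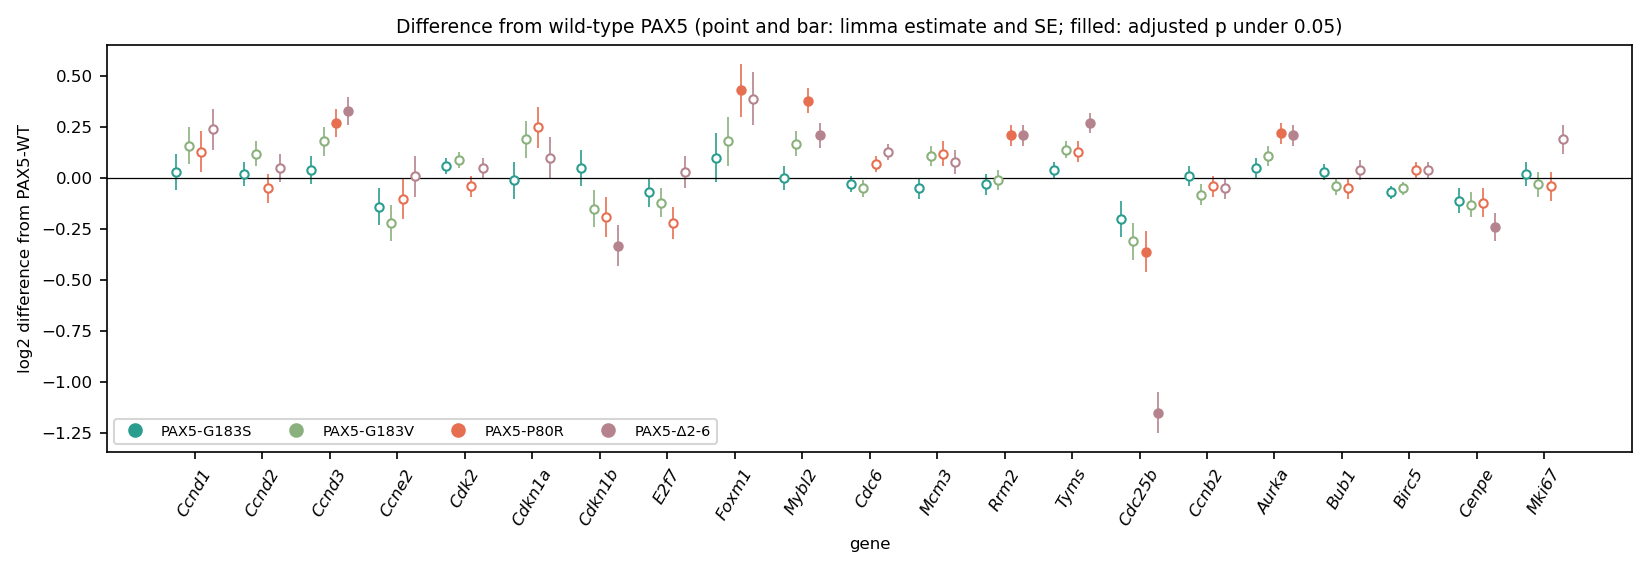
Log2 difference from PAX5-WT with its SE for 21 members in the 4 altered constructs, filled where limma's adjusted p was under 0.05. Cdc25b in PAX5-Δ2-6 lies at -1.15, and no PAX5-G183S or PAX5-G183V point is filled.

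The third set of comparisons lies within 1 pair of transduction series, which PAX5-Δ2-6, PAX5-G183V and PAX5-P80R share. PAX5-G183V had 4 of its 7 arrays on plate 1, where the others had none, so its comparisons here cross plates. On plate 2 alone, with fewer arrays, fewer members were called in both comparisons with PAX5-G183V. PAX5-P80R had 1 member higher and 2 lower than PAX5-Δ2-6 (5.77%), beside 3.3% of all genes, 1.95% higher and 1.36% lower, and 6.21% of the brighter genes. PAX5-G183V had 1 higher and 3 lower (7.69%), beside 4.98% of all genes, 3.35% higher and 1.64% lower, and 8.98% of the brighter ones. Both shares of members lay below those of the brighter genes. Cdc25b was higher by 0.79 ± 0.09 in PAX5-P80R (limma adjusted p = 1.47e-07) and by 0.84 ± 0.10 in PAX5-G183V (5.85e-08). Either construct had all its arrays above the highest PAX5-Δ2-6 array of 8.25. Mki67 was lower by -0.22 ± 0.06 in PAX5-P80R (0.0392) and by -0.22 ± 0.07 in PAX5-G183V (0.0458), and no array of either reached the lowest PAX5-Δ2-6 array of 12.08. These Mki67 calls were lost in 10 of 12 and in 10 of 13 runs with 1 array left out, and held in 7 and 6 of 12 other alternatives. Rrm2 (-0.23 ± 0.05, 0.00515) and Cdc6 (-0.17 ± 0.04, 0.00785) were lower in PAX5-G183V. Ccne1, an E cyclin that was named after its value was seen, was lower in PAX5-P80R (-0.19 ± 0.04, 0.0084). Between PAX5-P80R and PAX5-G183V 2 members were called (3.85%), beside 4.26% of all genes (1.64% higher, 2.62% lower) and 7.37% of the brighter ones. Rrm2 (0.22 ± 0.05, 0.00695) and Mybl2 (0.21 ± 0.06, 0.0442) were higher in PAX5-P80R, Mybl2 without overlap of arrays. For Cdc25b this last difference was -0.05 ± 0.10 (0.859).

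Other genes of the same pathways were followed in lists that were not trimmed by value. Among 16 RB, DREAM and inhibitor genes, 2 rose in PAX5-WT, PAX5-G183S and PAX5-G183V each (12.5%), and 3 fell in PAX5-P80R (18.8%). Among the brighter genes 11.8%, 11.2%, 16.4% and 8.94% were called in these comparisons, so the share of 12.5% lay at the background. Rb1, the retinoblastoma gene, rose by 0.34 ± 0.08 in PAX5-WT (limma adjusted p = 0.0041) and 0.38 ± 0.08 in PAX5-G183S (0.00129). It fell by 0.40 ± 0.09 in PAX5-P80R (0.00419), with a difference of -0.74 ± 0.09 between PAX5-P80R and PAX5-WT (2.83e-07). Tfdp2, a partner of E2F factors (-0.37 ± 0.06, 6.99e-05), and Cdkn2d, an inhibitor of Cdk4 and Cdk6 (-0.36 ± 0.09, 0.00996), also fell in PAX5-P80R. Against PAX5-WT, PAX5-Δ2-6 too was lower in Rb1 (-0.61 ± 0.09, limma adjusted p = 5.96e-06) and Cdkn2d (-0.34 ± 0.09, 0.0124). Between PAX5-P80R and PAX5-Δ2-6, Tfdp2 was called (-0.36 ± 0.06, 6.88e-05), whereas Rb1 and Cdkn2d were not. Cdkn1c, the inhibitor p57, rose in PAX5-G183S (0.39 ± 0.11, 0.0282) and PAX5-G183V (0.47 ± 0.11, 0.00451).

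Of 26 other replication genes, 1 rose and 2 fell in PAX5-WT (11.5%, beside 11.8% of the brighter genes). Pola1, the catalytic subunit of polymerase alpha, rose by 0.19 ± 0.05 (limma adjusted p = 0.0114), whereas Prim1, the primase subunit of the same complex, fell by 0.16 ± 0.04 (0.00524) and the thymidine kinase gene Tk1 by 0.21 ± 0.06 (0.0228). Among 26 further kinetochore and spindle genes 2 fell in PAX5-WT, Cenpi and Nusap1, each by 0.14. That is 7.69%, near the 6.43% of all genes and below the 11.8% of the brighter ones, and the list's median was -0.09 beside 0.01 over all genes. Of 17 genes of the anaphase promoting complex and SCF ligases, 1 rose in PAX5-G183S (5.88%, beside 6.12% of all genes), Anapc11 at 0.23 ± 0.06 (0.0117). In PAX5-G183V 2 of them fell, Cdc16 and Fbxo5, each by 0.17. That is 11.8%, beside 9.28% of all genes and 16.4% of the brighter ones. Of 14 p53 response genes, 2 rose and 1 fell in PAX5-WT and in PAX5-G183S (21.4% in each, beside 11.8% and 11.2% of the brighter genes). In PAX5-G183V 2 rose and 3 fell (35.7%, beside 16.4%), and in PAX5-P80R 1 rose and 1 fell (14.3%, beside 8.94%). Pmaip1, which encodes the death factor Noxa, fell by 0.54 ± 0.11 in PAX5-WT (0.000958). In PAX5-P80R Gadd45b, a stress gene, rose by 0.55 ± 0.05 (1.56e-10), whereas Trp53inp1 fell by 0.42 ± 0.09 (0.00352). The plasma cell markers Ly6c1 (-0.92 ± 0.08, 2.35e-10) and Xbp1 (-0.14 ± 0.04, 0.0113) fell in PAX5-WT beside the cycle genes, and the 6 plasma cell markers summed to 64.3 to 65.9 in MIR and 61.7 to 64.8 in PAX5-WT. Of these 6, 2 fell in PAX5-G183S as well and 4 in PAX5-G183V, where Jchain was at -0.63 ± 0.15 (0.00447). Of 8 T cell markers, Cd6 was called higher in PAX5-G183S (0.37 ± 0.09, 0.0106), PAX5-G183V (0.57 ± 0.09, 5.72e-05) and PAX5-P80R (0.46 ± 0.10, 0.00475), and Cd8a lower in PAX5-G183V (-0.26 ± 0.08, 0.0433). The median of that list was 0.05, 0.02 and -0.05 in these constructs. Their part in the results was not tested.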

How the data were processed

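Labelled RNA of each transduction was hybridised to 1 array, starting from 100 ng. The deposited log2 signals were made by the authors with RMA, which corrects background, brings the arrays to 1 distribution and summarises probes, per the submitters' processing notes; its software and version were not given in the sources used here. Of 45141 probe sets, 28898 had 1 gene symbol, 551 several and 15692 none. The brightest probe set of each of 17097 genes entered limma 3.58.1 (R 4.3.3) in a model of construct, plate and isolation batch over all 40 arrays, tested on simulated data. Precision is limited by the array number. The members and gene lists were chosen with earlier results of these data known. Levels are given for called members, up to 4 per role by size of change from MIR, for Mki67, Aurka, Ccnd1, Ccnd2, Ccnd3 and Cdkn1a whatever their call, and up to 3 called genes are named per other list. Alternatives covered batch terms, single batches, array subsets, probe set choice, dim genes and a further quantile normalization. Promoters came from RefSeq (GRCm38.p6).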

Additional observations from a re-analysis of the deposited data

Results flagged for a closer look

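Cdkn1a differed from MIR by -0.05 in isolation batch 1 and by 0.57 in batch 2 in PAX5-G183V, and the change of 0.62 passed limma's test of the difference itself (adjusted p = 0.00471). Mcm3 in the same construct went from -0.02 to 0.33, a change of 0.35 (limma adjusted p = 0.0463). E2f7 in PAX5-Δ2-6 replicate 3 read 7.92, apart from the other arrays of the group, of which the nearest read 8.12 and the farthest 8.19, so the gap took 0.743 of the range. It was 1 such array among 126 groups of values examined, where chance gives about 1 in 20.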

How the results depend on the processing

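Counts of called members depended on the batch terms and on the number of arrays. Alternatives with fewer arrays have less power by construction, and for the others the cause was not tested. The counts in the report were 9, 10, 11, 6 and 0 for PAX5-WT, PAX5-G183S, PAX5-G183V, PAX5-P80R and PAX5-Δ2-6 against MIR. Without plate and isolation batch terms they were 3, 3, 5 and 2 in the first 4, with 1 for PAX5-P80R and 2 for PAX5-Δ2-6 against PAX5-WT (6 and 8 in the report), 1 and 2 for PAX5-P80R and PAX5-G183V against PAX5-Δ2-6 (3 and 4) and 0 for PAX5-P80R against PAX5-G183V (2). Isolation batch 1 alone gave 5, 4, 1 and 2 against MIR, 2 for PAX5-Δ2-6 against PAX5-WT, 1 and 1 against PAX5-Δ2-6 and 0 for PAX5-P80R against PAX5-G183V. Batch 2 alone gave 1 and 1 for PAX5-WT and PAX5-G183S against MIR, 4 for PAX5-G183V against PAX5-WT (0), 3 for PAX5-Δ2-6 against PAX5-WT and 1 for PAX5-P80R against PAX5-G183V. Plate 2 alone gave 1 in each of the 4 constructs against MIR, 3 and 4 for PAX5-P80R and PAX5-Δ2-6 against PAX5-WT, 1 for PAX5-G183V against PAX5-Δ2-6, 0 for PAX5-P80R against PAX5-G183V and 0 changes between batches (2). Fits of the 2 groups compared gave 5 in PAX5-G183S and 1 in PAX5-P80R against MIR, 2 and 3 for PAX5-P80R and PAX5-Δ2-6 against PAX5-WT, 1 for PAX5-G183V against PAX5-Δ2-6 and 0 for PAX5-P80R against PAX5-G183V.

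With 3 transduction series as terms the counts rose to 19, 10 and 7 for PAX5-G183V, PAX5-P80R and PAX5-Δ2-6 against MIR, 9 and 11 for PAX5-G183V and PAX5-P80R against PAX5-WT and 5 for PAX5-P80R against PAX5-Δ2-6. With 4 series, a choice made after seeing the data in which PAX5-G183S replicate 4 alone links the series, they were 1 and 0 for PAX5-G183V and PAX5-P80R against MIR, 0 and 1 for PAX5-P80R and PAX5-Δ2-6 against PAX5-WT and 5 for PAX5-P80R against PAX5-Δ2-6. The replicate number as a block gave 7 and 1 for PAX5-G183V and PAX5-P80R against MIR, 0 and 1 for PAX5-P80R and PAX5-Δ2-6 against PAX5-WT, 1 for PAX5-G183V against PAX5-Δ2-6, 0 for PAX5-P80R against PAX5-G183V and 1 change between batches, each below the count in the report. It was not used in the report, because the labels tie the numbers to no shared animal, day or batch and 50 of 96 same-numbered pairs correlated over 0.1 (from -0.165 to 0.301), although 21 of 40 arrays correlated best with their own number. Without the 3 arrays of largest residual spread, also chosen after seeing the data, the counts were 7 and 2 for PAX5-G183V and PAX5-P80R against MIR and 1 for PAX5-P80R against PAX5-G183V. The mean of all probe sets gave 5 for PAX5-Δ2-6 against PAX5-WT and 5 for PAX5-P80R against PAX5-Δ2-6. Genes of mean log2 signal of at least 5 gave 6 for the latter, 4 for PAX5-P80R against PAX5-G183V and 7 changes between batches. A further quantile normalization moved no count by over 1.5 times. Another background correction was not run, since the values used here were already summarised.

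Leaving out 1 array gave 7 to 10 members in PAX5-WT, 5 to 8 in PAX5-G183S, 6 to 12 in PAX5-G183V and 2 to 6 in PAX5-P80R against MIR, 3 to 7 for PAX5-P80R and 6 to 8 for PAX5-Δ2-6 against PAX5-WT, 2 to 4 and 3 to 4 for PAX5-P80R and PAX5-G183V against PAX5-Δ2-6, 1 to 2 for PAX5-P80R against PAX5-G183V, and 1 to 5 changes between batches. It gave 0 in the other 3 comparisons. In PAX5-G183S the count was 6 without MIR replicate 1 or 5 and 5 without PAX5-G183S replicate 2. In PAX5-G183V it was 6 without MIR replicate 5 or 6 or PAX5-G183V replicate 6, and 7 without MIR replicate 7 or PAX5-G183V replicate 4, 5 or 7. In PAX5-P80R it was 3 without MIR replicate 2, 4 or 5 or PAX5-P80R replicate 2 or 6, and 2 without PAX5-P80R replicate 4. Against PAX5-WT it was 3 in PAX5-P80R without PAX5-WT replicate 7. Between PAX5-P80R and PAX5-G183V it was 1 without PAX5-G183V replicate 2, 4 or 7 or PAX5-P80R replicate 1, 4, 5 or 6. In more than 0.5 of these runs the call was lost for 16 of 59 calls. Against MIR these were Ccne2, Mybl2, Aurka and Birc5 in PAX5-G183S (10, 10, 11 and 9 of 14), Cdkn1a, E2f7, Mcm3 and Ccnb2 in PAX5-G183V (9, 10, 9 and 8 of 14) and Cdk2, Cdkn1a and Bub1 in PAX5-P80R (10, 9 and 10 of 13). The others were Cdkn1b and Mybl2 in PAX5-Δ2-6 against PAX5-WT (9 and 7 of 13), Mki67 in PAX5-P80R and PAX5-G183V against PAX5-Δ2-6 (10 of 12 and 10 of 13) and Mybl2 between PAX5-P80R and PAX5-G183V (8 of 13). There were 5 changes between batches without PAX5-G183S replicate 4, and 1 without any of 25 other arrays.

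The sign turned in 4 values of PAX5-G183V against MIR. Cdkn1a (-0.06) and Mcm3 (-0.02) turned in isolation batch 1 alone, Ccnb2 (0.05) with 4 series and Bub1 (0.02) with the mean of its probe sets. Cdc25b kept its call in all 12 alternatives other than leaving out single arrays in PAX5-WT (0.93 to 1.35), PAX5-G183S (0.68 to 1.1) and PAX5-G183V (0.64 to 0.88) against MIR and in PAX5-Δ2-6 against PAX5-WT (-1.27 to -1.08), and in 11 of 12 in PAX5-P80R against MIR. Between PAX5-P80R and PAX5-WT it kept it in 6 of 12. Cdc25b had a single probe set, so the alternative with the mean of all probe sets could not change its differences.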
